A study of Caenorhabditis elegans with 24 samples.

Results

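The cytosolic heat shock response was followed through repeated hypoxia in *Caenorhabditis elegans* by 10 genes: 6 small heat shock protein genes (*hsp-16.1*, *hsp-16.11*, *hsp-16.2*, *hsp-16.41*, *hsp-16.48* and *hsp-16.49*), 3 inducible HSP70 genes (*hsp-70*, *F44E5.4* and *F44E5.5*) and *hsf-1*, which encodes the transcription factor of the response. They were taken by gene identifier from the count table, are 10 of its 46926 genes, and all 10 passed the filter on low counts in every exposure. In hypoxia the *hsp-16* genes and *hsp-70* stood above normoxia in most exposures, while *F44E5.4* and *F44E5.5* were called lower in exposure 2 and higher only in exposure 4. In exposure 4 the 9 chaperone genes also stood above exposure 1 in the normoxia worms, by 0.94 to 1.17 on the log2 scale.

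Whole wild-type worms were sequenced as poly(A) RNA in 24 libraries, 8 groups with 3 biological replicates each. In each of 4 successive generations, worms of the last larval stage (L4) were kept for 16 hours at 0.1% oxygen (hypoxia) or stayed in air (normoxia), all at 20 °C on *Escherichia coli* OP50, and some worms of each group laid the eggs of the next generation. The generations are called exposures 1 to 4. After the 16 hours the worms were washed off the plates and flash frozen. Whether hypoxia worms spent time in air before freezing, and how long, is not given. The labels call the tissue whole worm at the L4 stage, but L4 is the stage at which the 16 hours began, and yolk and eggshell genes were present in every group. All 10 markers of body wall muscle, intestine, neurons, epidermis and germ line passed the filter on low counts in each exposure.

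When cytosolic proteins unfold, HSF-1 (heat shock factor) binds the promoters of chaperone genes and raises their transcription. The products of the *hsp-16* genes are small heat shock proteins that hold unfolded proteins in solution without using ATP, and HSP70 proteins bind and refold them with ATP. In *C. elegans* the *hsp-16* genes and *hsp-70* are kept low in unstressed worms and are standard reporters of heat stress, whereas *hsp-1* supplies HSP70 at all times.

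On build WBcel235 the *hsp-16* genes lie in 2 clusters on chromosome V as pairs transcribed away from each other. *hsp-16.1* (9087293 to 9087782, minus strand) faces *hsp-16.48* (9088131 to 9088617, plus strand) over a gap of 348 bp. *hsp-16.49* (9089280 to 9089766, minus strand) faces *hsp-16.11* (9090077 to 9090604, plus strand) over 310 bp, and these 4 genes fill 3312 bp. *hsp-16.2* (1804334 to 1804957, minus strand) faces *hsp-16.41* (1805178 to 1805875, plus strand) over 220 bp. *F44E5.4* (11757107 to 11759311, minus strand) and *F44E5.5* (11759662 to 11761861, plus strand) form such a pair on chromosome II, with a gap of 350 bp. *hsp-70* (9320325 to 9322519, minus strand) and *hsf-1* (11953507 to 11963085, minus strand) are on chromosome I, and *hsp-70* lies inside *uggt-2*, which runs on the other strand. Reads of the 2 strands were not stated to be counted apart, but *uggt-2* had only 2912 counts over all libraries, against 124450 for *hsp-70*.

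Several of these genes are near-identical copies, and how reads that match both copies were counted is not stated. *hsp-16.1* held between 48.4 and 51.3% of the counts of its pair with *hsp-16.11*, and its 95% Wilson interval, which covers counting error only, held 50% in 21 of 24 libraries. *hsp-16.48* held between 47.5 and 53.2% of its pair with *hsp-16.49*, with 50% inside the interval in 18 libraries. *F44E5.4* held between 49.2 and 50.6% of its pair with *F44E5.5*, with 50% inside the interval in 14 libraries. The copies of a pair may share reads and are uncertain as separate measurements. Counts of genes below take each name as 1, so that they hold fewer independent measurements than names.

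**Figure D1:**
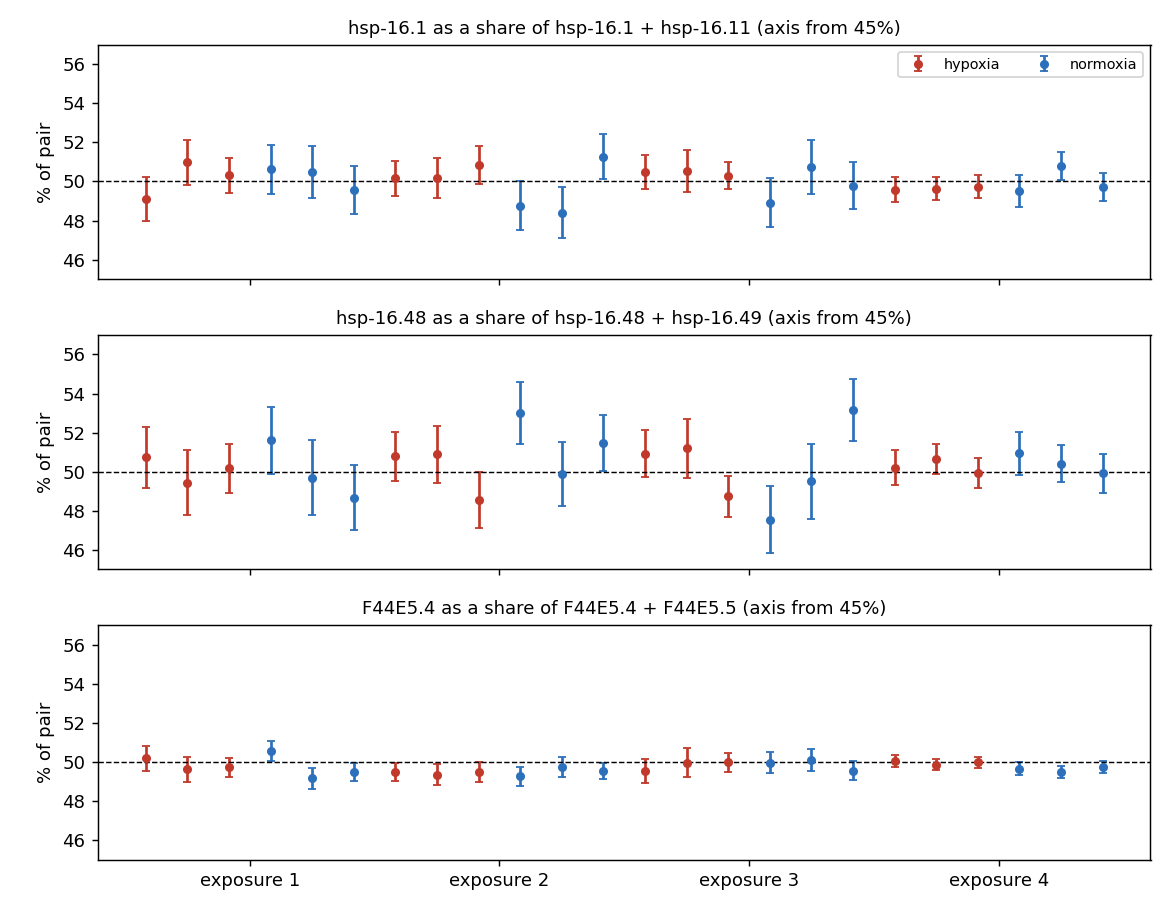
Share of the first copy in the counts of each pair of near-identical genes (vertical axis, %, starting at 45%) in the 24 libraries, grouped by exposure with hypoxia left of normoxia. Points are libraries, bars are 95% Wilson intervals, and shares stay between 47.5 and 53.2%.

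Library totals ran between 26862487 and 46228496 counts (median 33517710). Normoxia libraries of exposure 4 had 39925768 to 46228496, and those of exposures 1 to 3 at most 35738284. Replicates differed by more than counting noise in every pair, with a chi-square of at least 5.83 per degree of freedom. The highest values, 433 and 453, set hypoxia replicate 1 of exposure 4 against replicates 2 and 3, which had 5.83 between them. Levels below are CPM, counts scaled to the TMM-normalized library size over all 24 libraries. Fold changes and tests compare hypoxia with normoxia in a separate edgeR quasi-likelihood fit for each exposure, with p adjusted by Benjamini-Hochberg over all genes tested, and a gene is called at an adjusted p under 0.05. HIF-1 targets checked the labels: the summed level of 6 such genes in hypoxia libraries lay above that of normoxia libraries in every exposure. Up-regulated calls among the 6 numbered 2, 6, 3 and 3 in exposures 1 to 4, beside 13.3, 37.2, 12.4 and 27.1% of all genes. Only *phy-2* and *F22B5.4* were called up-regulated in all 4 exposures. The lowest log2 fold changes were −0.93 in exposure 1 and −1.60 in exposure 4, where 1 target was called down-regulated. Ribosomal RNA genes held 17.5% of the counts in hypoxia replicate 1 of exposure 4 and 10.3% in hypoxia replicate 2 of exposure 3, the highest shares, and the separate fits of each exposure without these genes changed no call of a member. Some markers of other tissues and stages also differed between hypoxia and normoxia. The shares of all genes called up-regulated given above apply to these lists too. Those called down-regulated were 7.40, 36.3 and 17.7% in exposures 1 to 3 and 3097 of 13448 genes in exposure 4. Of 31 sperm genes, 29, 29, 29 and 28 were tested and 27, 29, 0 and 26 called up-regulated in exposures 1 to 4, and their summed level was 1578 to 1928 CPM in hypoxia libraries and 809 to 930.2 CPM in normoxia libraries of exposure 1. Of 9 oocyte and eggshell genes, 2, 9, 2 and 7 were called down-regulated, and their sum in exposure 2 was 2799 to 3620.5 CPM in hypoxia and 5747 to 6305 CPM in normoxia. Of 6 yolk genes, 2, 3, 3 and 4 were called down-regulated, with 3 called up-regulated in exposure 2, and their sum in exposure 1 was 18518 to 55881 CPM in hypoxia and 76108 to 101855 CPM in normoxia. Of 6 molting genes, 2, 2, 5 and 4 were called down-regulated and 4 in exposure 2 up-regulated, and their sum in exposure 3 was 33.4 to 52.8 CPM in hypoxia and 197 to 276 CPM in normoxia. Of the 10 tissue markers, 1, 8, 5 and 6 were called down-regulated and 0, 2, 0 and 1 up-regulated. Their median log2 fold changes in exposures 1 to 4 were −0.27, −0.62, −0.52 and −0.23. No gene of these lists was at 0 in any exposure, and their part in the results below was not tested. In whole worms, fewer cells of a type and less RNA per cell cannot be told apart.

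In exposure 1 edgeR called 6 of the 10 genes up-regulated, where 13.3% of all genes tested were called in that direction, and 0 down-regulated (7.40% of all genes). The 6 were the *hsp-16* genes. In exposure 2 it called 6 up-regulated (37.2% of all genes) and 3 down-regulated (36.3%), in exposure 3, 7 up-regulated (12.4%) and 0 down-regulated (17.7%), and in exposure 4, 9 up-regulated (27.1%) and 1 down-regulated (3097 of 13448 genes). At an unadjusted p under 0.05, *hsp-70* passed in exposure 1 as well, and neither that threshold nor DESeq2 gave a lower member in exposure 1 or 3. The shares of all genes in exposure 1 moved with single libraries. edgeR called 1752 genes up-regulated and 975 down-regulated, against 2623 and 2083 without hypoxia replicate 2, 1035 and 371 without hypoxia replicate 3, and 1174 and 317 without normoxia replicate 2. The 5 genes called up-regulated in all 4 exposures were *hsp-16.1*, *hsp-16.11*, *hsp-16.2*, *hsp-16.41* and *hsp-16.49*, against 4.45% of the 12517 genes tested in every exposure. All hypoxia libraries lay above all normoxia libraries for 7, 5, 7 and 9 of the 10 genes in exposures 1 to 4, where 20.0, 34.3, 23.6 and 34.0% of the genes tested did. All lay below for 1, 3, 0 and 1 of the 10 genes, where 20.8, 44.0, 23.5 and 25.1% did.

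**Figure D2:**
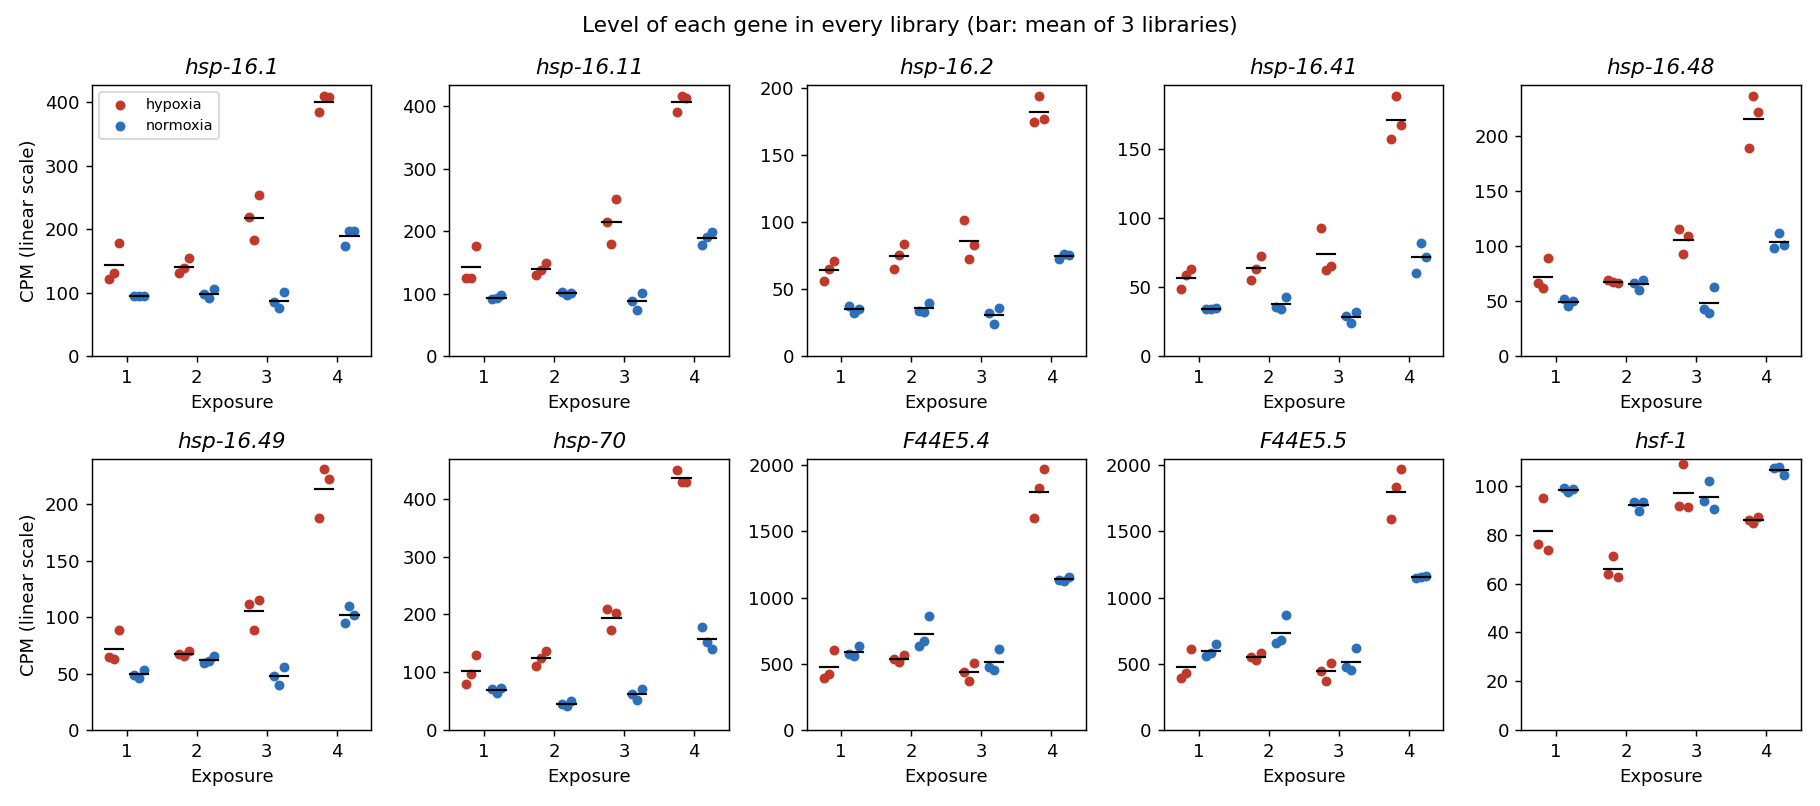
CPM of each of the 10 genes (vertical axes, linear and starting at 0) in every library, by exposure, with hypoxia in red on the left and normoxia in blue on the right of each exposure and a bar at the mean of 3 libraries. For all genes but *hsf-1* both groups of exposure 4 stand above the same condition in the other exposures, with *hsp-16.1* at 384 to 411 CPM in hypoxia and 174 to 197 CPM in normoxia.

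*hsp-16.2*, the member best known as a stress reporter, had 56.0, 65.5 and 70.9 CPM in hypoxia libraries of exposure 1, against 37.6, 32.4 and 35.1 CPM in normoxia libraries. It had 65.5, 75.9 and 83.6 CPM in hypoxia and 34.0, 33.2 and 40.0 CPM in normoxia of exposure 2, and 102, 72.4 and 82.9 CPM against 24.0 to 35.8 CPM in exposure 3. In exposure 4 it had 175, 194 and 177 CPM in hypoxia and 72.3, 76.7 and 75.6 CPM in normoxia. The groups did not overlap in any exposure. Its log2 fold change was 0.89 (SE 0.12, edgeR adjusted p = 0.00281) in exposure 1, 1.17 (SE 0.10, edgeR adjusted p = 2.79e-06) in exposure 2, 1.48 (SE 0.17, edgeR adjusted p = 0.000694) in exposure 3 and 1.24 (SE 0.06, edgeR adjusted p = 5.40e-06) in exposure 4.

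*hsp-16.41*, the divergent partner of *hsp-16.2*, also stood higher in hypoxia in every exposure. Its hypoxia libraries had 49.2, 58.8 and 63.1 CPM in exposure 1, against 34.5, 34.2 and 35.1 CPM in normoxia, and its log2 fold changes in exposures 1 to 4 were 0.74, 0.86, 1.37 and 1.22. In exposure 4 it had 158, 188 and 168 CPM in hypoxia and 60.7, 82.1 and 72.4 CPM in normoxia. edgeR called it up-regulated in each exposure, with an adjusted p between 4.43e-05 in exposure 2 and 0.00442 in exposure 1. *hsp-16.2* held between 48.3 and 55.7% of the counts of this pair, and the interval held 50% in only 8 of 24 libraries. Shares of counts do not show how alike 2 genes are in sequence, and the sequences were not compared.

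The *hsp-16.1* and *hsp-16.11* pair was the most abundant of the small heat shock pairs. Together they had 247, 257 and 354 CPM in hypoxia libraries of exposure 1, with replicate 3 the highest, and 187, 188 and 193 CPM in normoxia libraries. In exposure 3 they had 434, 362 and 505 CPM in hypoxia, against 175, 150.1 and 202 CPM in normoxia. In exposure 4 the pair had 775, 828 and 822 CPM in hypoxia and 352, 388 and 397 CPM in normoxia. No exposure had overlapping groups. The log2 fold change of *hsp-16.1* was 0.61 (SE 0.16, edgeR adjusted p = 0.0350) in exposure 1, 0.62 (SE 0.07) in exposure 2, 1.32 (SE 0.14) in exposure 3 and 1.04 (SE 0.06) in exposure 4, called in each.

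The *hsp-16.48* and *hsp-16.49* pair differed less between hypoxia and normoxia in exposure 2 than in the other exposures. There it had 136, 133 and 137 CPM in hypoxia libraries and 127, 122 and 135 CPM in normoxia libraries, which overlapped, and the ratio of means was 1.06-fold. *hsp-16.48* had a log2 fold change of 0.15 (SE 0.06, edgeR adjusted p = 0.0552), not called, and *hsp-16.49* one of 0.23 (SE 0.06, edgeR adjusted p = 0.00680), called. A joint fit of the 24 libraries, in which the median of all genes in exposure 2 was −0.13 rather than −0.01, gave *hsp-16.48* 0.04 and *hsp-16.49* 0.13 (edgeR adjusted p = 0.401), neither called. In exposures 1, 3 and 4 the pair had means of 145, 211 and 429.9 CPM in hypoxia and 99.0, 96.6 and 206 CPM in normoxia, with no overlap. From exposure 1 to 2, *hsp-16.48* and *hsp-16.49* changed by −0.10 and −0.09 in hypoxia on the log2 scale. In normoxia they changed by 0.41 and 0.33 (edgeR adjusted p = 0.0529 and 0.0785). The effect of hypoxia changed by −0.51 and −0.42 (edgeR adjusted p = 0.0634 and 0.0836). No such change was called.

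The calls of exposure 1 for 4 of the 6 *hsp-16* genes depended on which libraries were used. Only *hsp-16.2* and *hsp-16.41* were called when any 1 of the 3 normoxia replicates was left out, and *hsp-16.1* then had log2 fold changes of 0.61 to 0.64, against 0.61 with all libraries, and an adjusted p between 0.0684 and 0.124 in edgeR. *hsp-16.48* and *hsp-16.49* were also lost without hypoxia replicate 1 or 3, with log2 fold changes of 0.64 and 0.39 each, and *hsp-16.11* without hypoxia replicate 1 (edgeR adjusted p = 0.0505). With upper-quartile normalization of all libraries, *hsp-16.48* and *hsp-16.49* were not called either (edgeR adjusted p = 0.0542 and 0.0534).

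Summed over the 6 genes, *hsp-16* counts were 1.54-fold higher in hypoxia than in normoxia in exposure 1, 1.38-fold in exposure 2, 2.43-fold in exposure 3 and 2.17-fold in exposure 4, as ratios of mean CPM with n = 3 libraries each. The sum had 484, 506 and 666 CPM in hypoxia and 360.4, 346 and 368 CPM in normoxia of exposure 1. In exposure 4 it had 1485, 1678 and 1611 CPM in hypoxia and 678, 769 and 748 CPM in normoxia. The groups did not overlap in any exposure. No p is given for a sum over genes chosen with results known.

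The *hsp-16.2* pair and the *hsp-16.48* pair did not keep a fixed ratio. Within a library, a ratio of 2 counts needs no library size, and that of *hsp-16.2* and *hsp-16.41* to *hsp-16.48* and *hsp-16.49* was 0.888, 1.05 and 1.14 in hypoxia libraries of exposure 2, against 0.553, 0.556 and 0.613 in normoxia libraries. In exposure 1 it was 0.754 to 0.995 in hypoxia and 0.673 to 0.727 in normoxia. In exposure 4 it was 0.776 to 0.880 in hypoxia and 0.687 to 0.728 in normoxia. The hypoxia libraries lay above normoxia in these exposures, and in exposure 3 the groups overlapped at the edge, with 0.660 to 0.857 in hypoxia and 0.575 to 0.671 in normoxia. The ratio of *hsp-16.1* and *hsp-16.11* to *hsp-16.48* and *hsp-16.49* was 1.91 to 2.21 in hypoxia and 1.53 to 1.60 in normoxia of exposure 2. It overlapped between the groups in exposures 1, 3 and 4, with 1.77 to 2.05 in hypoxia and 1.75 to 1.95 in normoxia of exposure 4.

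**Figure D3:**
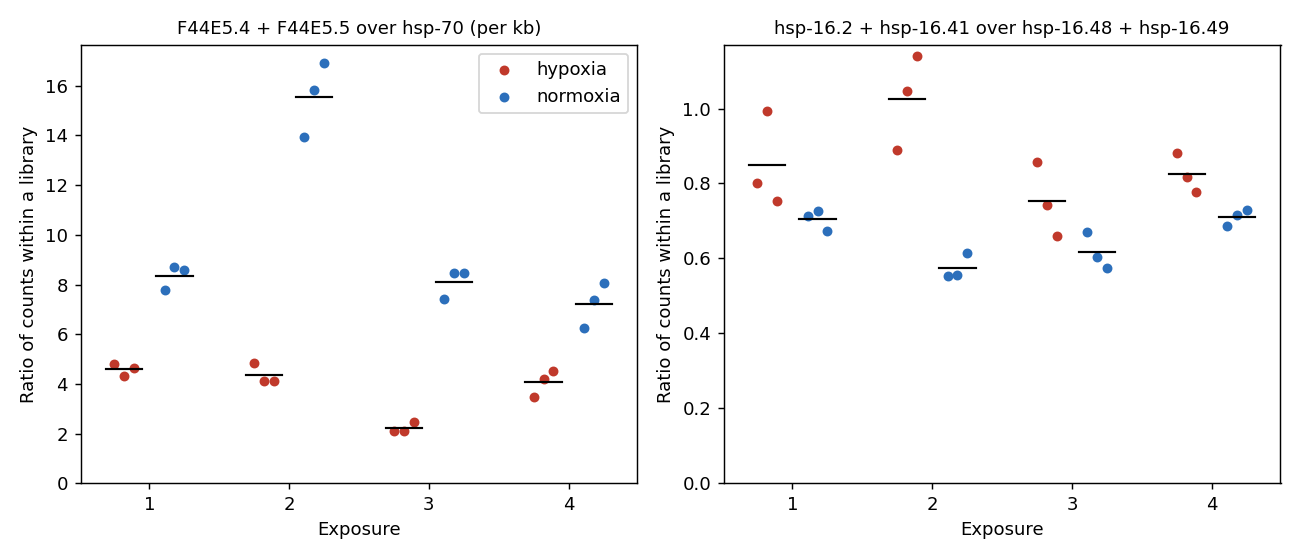
Ratios of counts within each library (vertical axes from 0), by exposure, with hypoxia left of normoxia and a bar at the mean of 3 libraries. Left, *F44E5.4* and *F44E5.5* over *hsp-70*, each per kb of exon, at 4.10 to 4.85 in hypoxia and 13.9 to 16.9 in normoxia of exposure 2; right, *hsp-16.2* and *hsp-16.41* over *hsp-16.48* and *hsp-16.49*, at 0.888 to 1.14 in hypoxia and 0.553 to 0.613 in normoxia of exposure 2.

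*hsp-70* encodes the inducible cytosolic HSP70 and had the largest fold change of the 10 genes in exposures 2, 3 and 4. It had 80.5, 97.2 and 129.6 CPM in hypoxia of exposure 1, against 71.8, 64.5 and 73.6 CPM in normoxia. The groups did not overlap, but the log2 fold change of 0.57 (SE 0.18, edgeR adjusted p = 0.0695) was not called, though it was by DESeq2 (adjusted p = 0.0284), with no filter beyond 1 count, in the joint fit of the 24 libraries (edgeR adjusted p = 0.00387) and without hypoxia replicate 1 (0.72, edgeR adjusted p = 0.0409). In exposure 2 *hsp-70* had 110.4, 125 and 137 CPM in hypoxia and 45.7, 42.0 and 50.3 CPM in normoxia. In exposure 3 it had 209, 173 and 203 CPM against 63.0, 53.0 and 71.8 CPM, and in exposure 4, 449, 429 and 429 CPM in hypoxia and 179, 152 and 141 CPM in normoxia. These changes were called, with log2 fold changes of 1.54 (SE 0.09), 1.64 (SE 0.13) and 1.43 (SE 0.09) and edgeR adjusted p of 1.81e-07, 0.000107 and 1.36e-05.

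*F44E5.4* and *F44E5.5*, the other inducible HSP70 genes, did not follow *hsp-70*. *F44E5.4* had 394, 425 and 608 CPM in hypoxia libraries of exposure 1, with replicate 3 the highest, and 576, 562 and 635 CPM in normoxia libraries. It had 539, 513 and 568 CPM in hypoxia and 638, 673 and 857 CPM in normoxia of exposure 2, and 442, 372 and 509.8 CPM in hypoxia and 476, 457 and 612 CPM in normoxia of exposure 3. The groups overlapped in exposures 1 and 3 and not in exposure 2. Of these exposures only exposure 2 was called, with a log2 fold change of −0.31 (SE 0.10, edgeR adjusted p = 0.0177), which was lost without hypoxia replicate 1 (−0.30, edgeR adjusted p = 0.0591) or hypoxia replicate 2 (−0.26, edgeR adjusted p = 0.0806). *F44E5.5* had −0.31 there (edgeR adjusted p = 0.0180) and was lost without the same libraries. In exposures 1 and 3 *F44E5.4* had log2 fold changes of −0.29 (SE 0.18) and −0.22 (SE 0.15), with edgeR adjusted p of 0.298 and 0.285.

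In exposure 4 the direction was the opposite. *F44E5.4* had 1596, 1822 and 1967 CPM in hypoxia and 1130.2, 1129 and 1154 CPM in normoxia, a log2 fold change of 0.62 (SE 0.09, edgeR adjusted p = 0.000778). *F44E5.5* had a log2 fold change of 0.60 (SE 0.09, edgeR adjusted p = 0.000966). The test of this difference between exposures is given with the joint fit below.

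Because *F44E5.4* and *F44E5.5* have most of the inducible HSP70 counts, the sum of the 3 genes hides the change of *hsp-70*. The sum in hypoxia was 0.840-fold that of normoxia in exposure 1, 0.808-fold in exposure 2, 0.986-fold in exposure 3 and 1.64-fold in exposure 4. Within a library, the ratio of *F44E5.4* and *F44E5.5* to *hsp-70*, each per kb of exon, was 4.33 to 4.79 in hypoxia and 7.79 to 8.71 in normoxia of exposure 1. In exposure 2 it was 4.10 to 4.85 in hypoxia and 13.9 to 16.9 in normoxia. In exposure 3 it was 2.10 to 2.47 in hypoxia and 7.42 to 8.46 in normoxia, and in exposure 4, 3.49 to 4.51 in hypoxia and 6.25 to 8.07 in normoxia. In every exposure all hypoxia libraries lay below all normoxia libraries, so that *hsp-70* took a larger part of the 3 transcripts in hypoxia.

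*hsf-1* encodes the transcription factor itself, and its RNA level says nothing of its activity. It had 76.0, 94.9 and 73.5 CPM in hypoxia and 98.9, 97.5 and 98.9 CPM in normoxia of exposure 1. In exposure 2 it had 63.9, 71.3 and 62.6 CPM in hypoxia and 93.2, 89.5 and 93.3 CPM in normoxia. In exposure 4 it had 85.8, 84.5 and 87.4 CPM against 107, 108 and 104 CPM. The groups were apart in these exposures and overlapped in exposure 3, with 91.2 to 109 CPM in hypoxia and 90.4 to 102 CPM in normoxia. *hsf-1* fell by 0.38 (SE 0.06, edgeR adjusted p = 0.000276) in exposure 2 and by 0.35 (SE 0.04, edgeR adjusted p = 0.000414) in exposure 4 on the log2 scale. In exposure 1 its log2 fold change was −0.26 (SE 0.11, edgeR adjusted p = 0.145), called without hypoxia replicate 2 (−0.36, edgeR adjusted p = 0.0105), and in exposure 3 it was 0.03 (SE 0.09, edgeR adjusted p = 0.864).

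**Figure D4:**
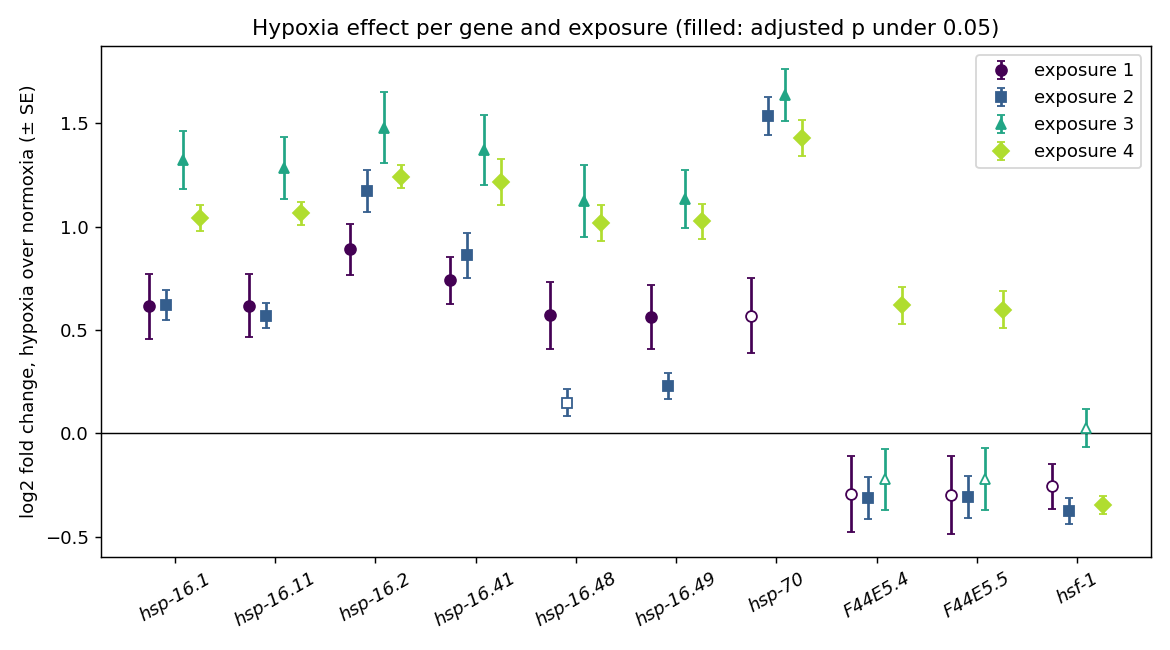
Log2 fold change of hypoxia over normoxia (vertical axis, bars are SE) of the 10 genes in exposures 1 to 4, from the separate edgeR fits of 3 against 3 libraries; filled symbols have an adjusted p under 0.05. *hsp-70* reaches 1.64 in exposure 3, and *F44E5.4* is at −0.31 in exposure 2 and 0.62 in exposure 4.

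The joint fit compared the effect of hypoxia across the 4 exposures. It differed for all 10 genes at an edgeR adjusted p under 0.05, but so did it for 68.2% of the 12517 genes tested. The strongest were *hsp-16.49* (adjusted p = 0.000276) and *hsp-70* (adjusted p = 0.000495 in edgeR). *hsp-16.2* had the weakest (edgeR adjusted p = 0.0438) and was not called in 22 of the 29 alternatives, 19 of them fits with 1 of the 24 libraries left out, and also not by DESeq2 (adjusted p = 0.0613). *hsp-16.41* was not called in 3 of 29 and *hsf-1* in 1 of 29.

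Against exposure 1, the effect on *hsp-16.1* was larger by 0.73 (SE 0.18, edgeR adjusted p = 0.00690) in exposure 3 on the log2 scale, and 7 of the 10 genes had a larger effect in exposure 3 (24.8% of all genes called in either direction). In exposure 2 only *hsp-70* differed from exposure 1, by 0.88 (SE 0.20, edgeR adjusted p = 0.00245; 34.8% of all genes called). Between these exposures its normoxia level had a log2 difference of −0.61 (edgeR adjusted p = 0.00819). Its hypoxia level had one of 0.27 (SE 0.14, edgeR adjusted p = 0.118), not called. In exposure 4 the effect was larger than in exposure 1 for *hsp-70* by 0.92 (SE 0.20, edgeR adjusted p = 0.0131) and for *F44E5.4* by 0.97 (SE 0.22, edgeR adjusted p = 0.0149), with *F44E5.5* beside it and 4.06% of all genes called. For the *hsp-16* genes the differences between exposures 4 and 1 lay between 0.41 and 0.53. They were not called (edgeR adjusted p between 0.119 and 0.259). Against exposure 3, the effect in exposure 4 was larger for *F44E5.4* by 0.88 (SE 0.22, edgeR adjusted p = 0.00539), and the effect on *hsf-1* was lower, with a log2 difference of −0.33 (SE 0.12, edgeR adjusted p = 0.0379; 31.0% of all genes called). Against exposure 2, 6 of the 10 genes had a larger effect in exposure 3 (57.1% of all genes called) and 6 in exposure 4 (47.5%), led by *hsp-16.48* with 1.08 in exposure 3 and *F44E5.4* with 1.08 in exposure 4. For the *hsp-16* genes the differences between exposures 4 and 3 lay between −0.24 and −0.07 and were not called. The design gives each exposure its own cultures, so an effect of the number of exposures and one of the culture cannot be told apart.

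In exposures 1 to 3 the normoxia levels moved less. *hsp-70* stood lower in normoxia of exposure 2 than of exposure 1, with a log2 difference of −0.61 (SE 0.14, edgeR adjusted p = 0.00819; 20.5% of all genes called in either direction), and *hsp-70* was higher and 5 genes lower in exposure 3 than in exposure 2 (38.0%). In hypoxia only *hsf-1* differed between exposures 2 and 1 (−0.30, SE 0.08, edgeR adjusted p = 0.00538; 47.5%), 7 genes were higher in exposure 3 than in exposure 1 and 6 higher in exposure 3 than in exposure 2, where 38.9 and 68.5% of all genes were called in either direction.

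The levels of exposure 4 stood apart. In normoxia, exposure 4 stood above exposure 1 for 9 of the 10 genes, where 4.16% of all genes were called higher. The log2 differences were 1.00 for *hsp-16.1* (SE 0.13, edgeR adjusted p = 4.32e-05), 1.17 for *hsp-70* (SE 0.14, edgeR adjusted p = 2.17e-05) and 0.94 for *F44E5.4* (SE 0.15, edgeR adjusted p = 0.000349). *hsf-1* did not pass, at 0.11 (SE 0.08, edgeR adjusted p = 0.369). Against normoxia of exposure 3, 9 of the 10 genes were also higher in exposure 4 (1.97% of all genes were), and against exposure 2 all 10 were (18.5%).

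Every normoxia library of exposure 4 lay above every normoxia library of exposures 1 to 3 for all 10 genes, where 5.59% of all genes did so. The 9 chaperone genes together had 3133 to 3208 CPM in normoxia of exposure 4 and 1244 to 2206 CPM in normoxia of exposures 1 to 3. For the summed *hsp-16* genes the normoxia libraries of exposure 4 had 678 to 769 CPM, above the 484 to 666 CPM of hypoxia libraries in exposure 1. By pair, only *hsp-16.48* with *hsp-16.49* was apart in this way. *hsp-16.1* with *hsp-16.11* had 352 to 397 CPM against 247 to 354 CPM, and *hsp-16.2* with *hsp-16.41* 133 to 159 CPM against 105 to 134 CPM, which overlapped.

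In hypoxia the levels of exposure 4 were higher still. Against hypoxia of exposure 1, 9 of the 10 genes were higher in exposure 4 (6.63% of all genes), by a log2 difference of 1.48 for *hsp-16.1* (SE 0.13, edgeR adjusted p = 6.82e-07), 2.09 for *hsp-70* (SE 0.15, edgeR adjusted p = 3.77e-08) and 1.92 for *F44E5.4* (SE 0.16, edgeR adjusted p = 3.92e-07). *hsf-1* had 0.08 (SE 0.08, edgeR adjusted p = 0.560). Between the same hypoxia groups all 28 sperm genes tested were lower in exposure 4 (median log2 difference −0.96). Of 9 oocyte and eggshell genes 4 were higher, and of 6 HIF-1 targets 2 were lower. Over all genes, 1940 of 12517 were called in either direction. The part of these lists in the higher levels was not tested. Over the 4 groups of a condition, hypoxia levels differed for all 10 genes (78.5% of all genes) and normoxia levels for 9 of the 10 (6755 of 12517 genes), and the exception in normoxia was *hsf-1* (edgeR adjusted p = 0.153). *hsf-1* was not called in 20 of 28 alternatives, but it was by DESeq2 (adjusted p = 7.02e-05), with upper-quartile normalization and without ribosomal RNA genes. edgeR also called it without hypoxia replicate 2 of exposure 1 (adjusted p = 0.00202), replicate 1 or 3 of exposure 2, replicate 3 of exposure 3 or replicate 1 of exposure 4.

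Sperm genes stood lower in normoxia of exposure 4 than of exposure 1 (17 of 28 tested), of exposure 2 (25) and of exposure 3 (28), and 0 of 9 oocyte and eggshell genes differed from exposure 1 or 3 in edgeR, while 6 of 9 were higher than in exposure 2. Against exposure 2, 3 of 6 molting genes were also higher and 6 of 10 tissue markers lower. Against exposure 1, 4 of the 10 tissue markers were lower (median log2 difference −0.26, beside −0.03 over all genes). Against exposure 3, 3 of them were lower, and 0 were higher in any of these comparisons. Over the 12517 genes tested, 13.8% were called lower in normoxia of exposure 4 than of exposure 1. Against exposure 2, 18.5% were called higher and 6354 genes in either direction, and against exposure 3, 2109 genes in either direction. The summed level of sperm genes was 535 to 663 CPM in normoxia of exposure 4 and 809 to 930.2 CPM in normoxia of exposure 1. The part of these shifts in the higher chaperone levels was not tested.

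Per kb of exon, the order of levels also changed. In normoxia of exposure 1, *F44E5.5* (286 ± 21.6 CPM per kb) and *F44E5.4* (282 ± 18.6) stood first and did not differ beyond their spread, *hsp-16.1* (217 ± 1.60) and *hsp-16.11* (198 ± 6.06) came next, then *hsp-16.49* (114.7 ± 8.71), *hsp-16.48* (114.6 ± 8.17), *hsp-16.2* (60.6 ± 4.52) and *hsp-16.41* (54.1 ± 0.676), with *hsf-1* (39.7 ± 0.323) and *hsp-70* (34.0 ± 2.37) last (SD, n = 3). In hypoxia of exposure 4, *hsp-16.1* (916 ± 33.6 CPM per kb), *F44E5.5* (859.8 ± 91.4), *F44E5.4* (856 ± 89.2) and *hsp-16.11* (855 ± 29.8) lay within the spread of their neighbours. They were followed by *hsp-16.48* (500.2 ± 56.0) and *hsp-16.49* (495 ± 52.5), *hsp-16.2* (315 ± 17.9), *hsp-16.41* (268 ± 24.5), *hsp-70* (212 ± 5.50) and *hsf-1* (34.7 ± 0.577). Levels per kb of copies that may share reads carry the uncertainty given above.

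Of 10 other small heat shock protein genes, 8, 9, 8 and 8 could be tested in exposures 1 to 4, and 3 were called up-regulated in each, with 0, 5, 3 and 2 called down-regulated. The 3 were *hsp-12.3*, *hsp-12.6* and *hsp-17*, in all exposures. *hsp-12.3* had the largest change of this list in each, with log2 fold changes of 5.63 (SE 0.38), 3.94 (SE 0.07), 5.48 (SE 0.29) and 6.80 (SE 0.20), beside 3.46, 1.27, 5.21 and 3.10 for *hsp-12.6* and 0.98, 2.40, 1.63 and 1.02 for *hsp-17*. The median over the list was −0.18, −0.58, −0.18 and 0.08, beside −0.02, −0.01, 0.03 and −0.00024 over all genes tested.

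For these lists the shares of all genes called up-regulated in exposures 1 to 4 were 13.3, 37.2, 12.4 and 27.1%, and those called down-regulated 7.40, 36.3 and 17.7% in exposures 1 to 3 and 3097 of 13448 genes in exposure 4. Of 9 other HSP70 and HSP110 genes, up-regulated calls in exposures 1 to 4 numbered 1, 7, 3 and 3, and down-regulated calls 0, 0, 1 and 1. Only *hsp-6*, the mitochondrial HSP70, was called up-regulated in all 4, with log2 fold changes of 0.91, 1.35, 0.70 and 0.47. *hsp-4*, the HSP70 of the endoplasmic reticulum, had the largest change in exposure 2, at 1.62 (edgeR adjusted p = 6.91e-09), and *F11F1.1*, an HSP70-like gene, in exposure 3, at −1.05 (edgeR adjusted p = 0.0180).

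Of 15 genes for HSP90 and co-chaperones of HSP90 or HSP70, edgeR gave 0, 10, 7 and 1 up-regulated calls and 0, 2, 1 and 4 down-regulated ones, beside 37.2 and 36.3% of all genes in exposure 2. *hsp-90* had 0.71 in exposure 2 and 0.51 in exposure 3, where it was the largest of the list, and *unc-23*, a BAG-family co-chaperone of HSP70, had 0.92 and 0.83 in exposures 2 and 4.

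Of the 8 genes of the cytosolic chaperonin, which folds actin and tubulin, 1, 8, 8 and 0 passed as up-regulated and 0, 0, 0 and 3 as down-regulated, beside 37.2 and 12.4% of all genes up-regulated in exposures 2 and 3. *cct-5* had 0.91 in exposure 2, *cct-3* had 0.51 in exposure 1 and 0.69 in exposure 3, and *cct-8* had −0.39 in exposure 4 (edgeR adjusted p = 0.000945). The 3 genes for HSF-1 regulators were called down-regulated in exposure 2, where *hsb-1*, which encodes a binding partner of HSF-1, had −0.52 (edgeR adjusted p = 0.000518), and in no other exposure.

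**Figure D5:**
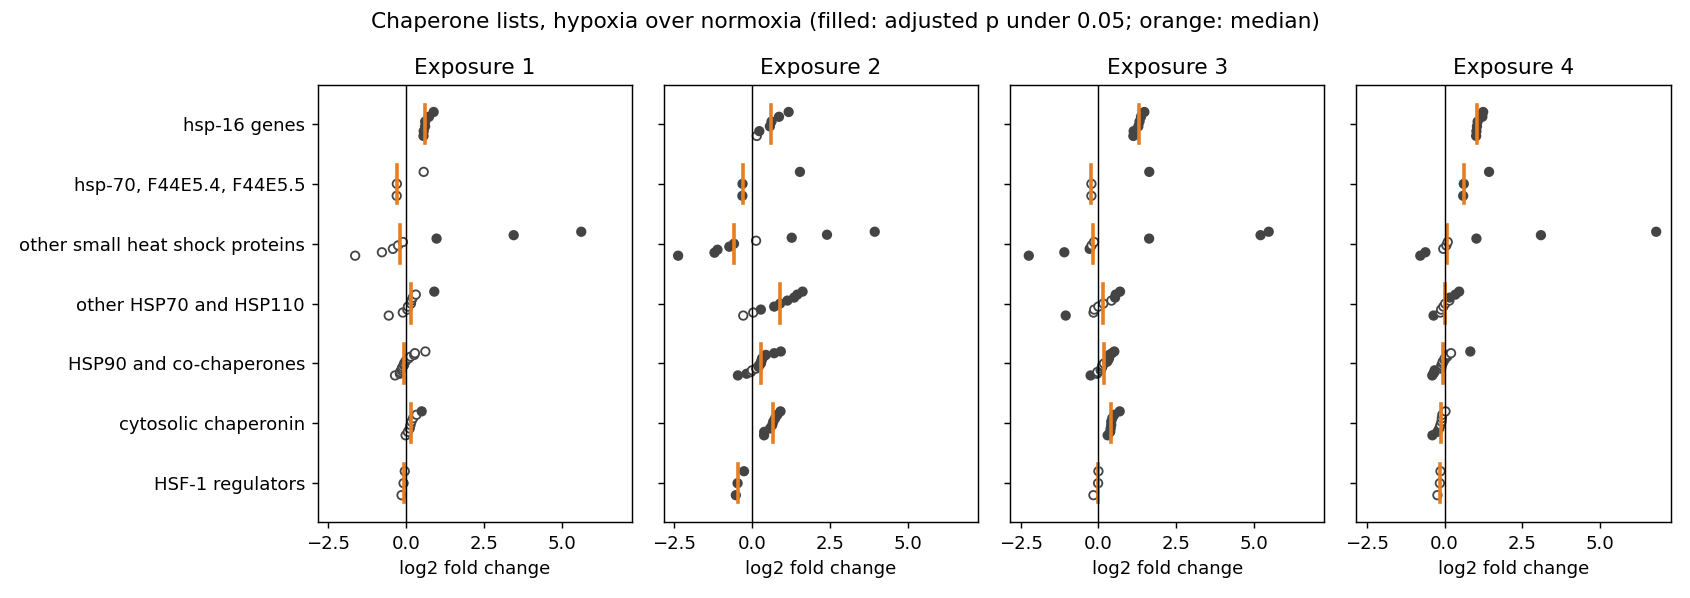
Log2 fold change of hypoxia over normoxia of each tested gene (horizontal axis, shared by the panels) in the *hsp-16* genes, the inducible HSP70 genes and 5 chaperone lists in exposures 1 to 4, from edgeR; filled points have an adjusted p under 0.05 and the orange line is the median. *hsp-12.3* reaches 6.80 in exposure 4, and the chaperonin genes lie right of 0 in exposures 2 and 3.

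In normoxia most genes of the HSP90 and co-chaperone list and of the chaperonin also stood higher in exposure 4 than in exposure 1. Of the 15 genes for HSP90 and co-chaperones of HSP90 or HSP70, 11 were called higher and 0 lower, of 8 chaperonin genes 7 and 0, and of 9 other HSP70 and HSP110 genes 3 and 0, where 4.16% of all genes were called higher and 13.8% lower. The median log2 differences of the 3 lists were 0.30, 0.26 and 0.15, beside −0.03 over all genes and 0.94 to 1.17 for the 9 chaperone genes above. Of 8 other small heat shock protein genes tested, *hsp-17* was higher and *hsp-12.3* lower (list median −0.07), and edgeR called 0 of 3 HSF-1 regulators (median 0.02).

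Among 12507 other genes, those whose log2 CPM tracked the summed *hsp-16* genes most closely over the 24 libraries were *ttll-12* (Pearson r = 0.906), *hsp-110* (0.879), *ahsa-1* (0.878), *dnj-12* (0.858) and *F19B2.5* (0.818). *hsp-110*, *ahsa-1* and *dnj-12*, which encode an HSP110, an activator of HSP90 and a J-domain co-chaperone, are also in the lists above. For the summed inducible HSP70 genes they were *R107.5* (0.901), *scp-1* (0.889), *dnj-13* (0.872), *Y43F8B.2* (0.837) and *msrp-7* (0.816). The libraries share exposures and depth, and exposure 4 stands apart in both sums, so these values describe the order only.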

How the data were processed

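The authors trimmed reads with cutadapt 4.0, mapped them to genome WS235 with Bowtie2 and made gene totals by featureCounts, and the deposited values are raw counts of 46926 genes in 24 libraries, made from poly(A) RNA with a directional kit. The sources used here do not state the strand setting or how reads with several matches were counted. Deposited tables of the authors' own DESeq2 fold changes, standard errors and p-values were not used. Counts ran between 26862487 and 46228496 per library. The counts were tested with edgeR 4.0.16 (R 4.3.3, TMM, quasi-likelihood) on genes with at least 350 counts over the 6 libraries of an exposure, hypoxia against normoxia without a replicate term, with Benjamini-Hochberg adjustment. A joint fit of the 24 libraries used the 12517 genes that passed in every exposure. DESeq2 1.42.0, other scalings and filters, a replicate block and leaving out each library were alternatives. Standard errors are the fold change over the root of the F statistic. The edgeR test of each exposure and the joint test of the difference between exposures were tried on simulated counts, and the other steps were not. The genes were found by WBGene identifier in Ensembl release 115 on WBcel235, and *hsp-16.11* and *hsp-16.49* are named by RefSeq at the same place. All 10 members are named in the text. From each chaperone list, genes that passed the same way in every exposure and the called gene with the largest change in an exposure are named, with *hsp-90* in exposure 2 added after its value was seen, and likewise the 5 genes most like each sum. Members and lists were chosen with earlier results of these data known. The planned search of promoters for heat shock and hypoxia elements was not run, since no sequence was used here. The edgeR p-values set a difference between groups against the spread between replicates, which edgeR estimates with information from all genes. The 3 replicates of a group are called biological, and nothing states that these were grown apart.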

Additional observations from a re-analysis of the deposited data

Results flagged for a closer look

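The effect of hypoxia differed between the 4 exposures for each of the 10 genes in the joint edgeR fit, as it did for 68.2% of all genes tested. The edgeR adjusted p was 0.000276 for *hsp-16.49*, 0.000501 for *hsp-16.48*, 0.00132 for *hsp-16.11*, 0.00179 for *hsp-16.1*, 0.0175 for *hsp-16.41* and 0.0438 for *hsp-16.2* among the small heat shock genes. It was 0.000495 for *hsp-70*, 0.000910 for *F44E5.4* and 0.00134 for *F44E5.5* among the HSP70 genes and 0.00727 for *hsf-1*. *F44E5.4* and *F44E5.5* are near-identical copies with near-equal counts, as are *hsp-16.1* and *hsp-16.11*, and *hsp-16.48* and *hsp-16.49*, so the 10 values are fewer than 10 independent measurements.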

How the results depend on the processing

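Counts of called members in exposures 3 and 4 stayed within 1.5 times under every alternative without a fold threshold. The 6 up-regulated calls of exposure 1 came to 2 with a replicate block, and to between 2 and 6 when 1 library was left out, with 2 without any 1 of the normoxia replicates. The 0 down-regulated calls of exposure 1 came to 1, *hsf-1*, in the joint fit of the 24 libraries, and to between 0 and 1 with 1 library left out, 1 without hypoxia replicate 2. The 3 down-regulated calls of exposure 2 came to between 1 and 3, with 1 without hypoxia replicate 1 or 2. Where calls also had to reach 1 on the log2 scale in either direction, up-regulated calls were 0 in exposure 1 and 2 in exposure 2, and down-regulated calls were 0 in exposures 2 and 4.

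The summed inducible HSP70 genes of exposure 3, at a log2 ratio of −0.02, lay between −0.12 and 0.13 with 1 library left out, above 0 without hypoxia replicate 2 or normoxia replicate 3. *hsf-1* in exposure 3, at 0.03, had −0.030 with upper-quartile normalization and lay between −0.080 and 0.071 with 1 library left out. The interaction of *hsp-16.2* had an adjusted p of up to 0.126, and edgeR lost that of *hsp-16.41* with upper-quartile normalization and without hypoxia replicate 2 of exposure 1 or hypoxia replicate 1 of exposure 2, and that of *hsf-1* with no filter beyond 1 count. The causes were not tested.

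Counts over all genes, which give the background shares, also moved by over 1.5 times. In exposure 1 the 975 down-regulated genes came to between 317 and 2083 with 1 library left out (400 without hypoxia replicate 1, 381 without normoxia replicate 3), to 494 with a replicate block and 1485 by DESeq2, and in the joint fit 2745 genes were up-regulated and 2836 down-regulated. In exposure 3 the 1606 up-regulated genes came to 858 without normoxia replicate 1, 1004 without hypoxia replicate 1 and 1044 without normoxia replicate 3. In exposure 4 the 3097 down-regulated genes came to 1585 in the joint fit.

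Same-numbered hypoxia and normoxia libraries deviated together with a correlation over 0.1 in 2 of 12 pairs (−0.31 to 0.30). Of 12 hypoxia libraries, 6 correlated best with their own number. With 3 libraries a group these values cannot settle whether the numbers pair the samples. The main fits have no replicate term, and the block result is given only in this section. Near-identical copies, unstated handling of their reads and 3 libraries a group limit these values. Raw library totals and upper-quartile sizes moved the ratios of the sums by less than the spread between replicates.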
